A study of Xenopus laevis with 12 samples.

Results

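The RNAs described here encode the intracellular and membrane core of TGF-beta superfamily signalling in *Xenopus laevis* embryos: the receptors, the Smad proteins, the Smurf ubiquitin ligases and the co-repressors Ski and Tgif. The genes were chosen with earlier results of these data known, and their probe sets were then taken by gene symbol. A probe set was included if annotated to 1 gene whose symbol starts with acvr, bmpr, tgfbr, smurf or smad and a digit. Those of ski, skil, tgif1 and tgif2 were included too. Both the .L and .S copies, which the frog carries on its long and short subgenomes, were taken. This gave 45 probe sets of 30 genes, among 32539 probe sets tested and 11303 named genes. A further 5 probe sets annotated to more than 1 gene, among them both copies of ski, acvr2b, bmpr1a or smad2, were left out.

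TGF-beta superfamily ligands bind a pair of type II receptors, which phosphorylate type I receptors, which in turn phosphorylate receptor-regulated Smads. Smad1 and Smad9 (also named Smad8) carry the signal of bone morphogenetic proteins (BMPs), Smad2 and Smad3 that of activin, nodal and TGF-beta, and both branches need Smad4 to regulate genes in the nucleus. Smad6, which acts mainly on the BMP branch, and Smad7, which acts on both, are inhibitors whose genes are themselves switched on by the signal. In the frog gastrula BMP signalling specifies ventral fates and epidermis, and nodal signalling specifies mesoderm and endoderm.

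The study asked which genes change when fam46a, also named tent5a, is depleted from the embryo with morpholinos (MOs), synthetic antisense molecules that stop an RNA from being translated or spliced. Whole embryos made by in vitro fertilization received, in each of their cells at the 4-cell stage and on the animal side, Fam46a-MO1 (MO1, 10 ng per cell), a mixture of Fam46a-MO2 with Fam46-MO3 (MO2+MO3, 7 ng of each per cell), or with the control oligonucleotide CoMO (10 ng per cell). They were kept at 22 °C and collected at stage 8, a blastula, and stage 10.5, an early gastrula, with 2 arrays for each of the 6 groups. The labels call these biological replicates and do not say whether they came from separate clutches, so the p-values measure the spread between these samples. The groups differ in the total mass of oligonucleotide injected, both comparisons with CoMO use the same CoMO arrays, and no uninjected or rescued embryos were analysed here.

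The deposited values are log2 signals from which the median of the 6 arrays of a stage had been subtracted for each probe set. A value of 0.3 is therefore 0.3 above the middle array of that stage, and gives neither a level nor a change of level between the stages. Only a broad range for the lowest array of a probe set could be bounded, from rounding in the values. Medians of the 12 arrays ranged from -0.0103 to 0.0121, and their SDs from 0.260 to 0.347. Arrays with the same replicate number at the same stage deviated together, with correlations of 0.821 to 0.864, so results are given from a fit without that number and from a fit with it as a block. For both probe sets of tent5a.L at stage 10.5, the MO1 arrays lay below the MO2+MO3 arrays and the CoMO arrays overlapped both, with -0.13 and -0.12 for one and -0.13 and -0.03 for the other on the MO1 arrays, 0.38 and 0.12, and 0.13 and 0.03, on the MO2+MO3 arrays, and 0.14 and -0.43, and 0.09 and -0.04, on the CoMO arrays. An MO that blocks translation need not change its target's RNA, so these values do not check the labels.

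At stage 10.5 the type I activin receptor gene acvr1b.S was higher in embryos injected with either reagent than in CoMO embryos, by 1.64-fold in MO1 and 1.29-fold in MO2+MO3. Without the block only its MO1 change passed the test, 1 of the 45 probe sets against 0.916% of all probe sets tested (0.443% higher), and no probe set passed in MO2+MO3, against 0.907%. With the block, 9 probe sets rose and 1 fell in MO1, which is 22.2% of the 45 against 16.2% of all probe sets. By direction, 20% rose and 2.22% fell, against 8.48% and 7.75% of all. In MO2+MO3, 4 rose and 2 fell, 13.3% against 16.8%. There 8.89% rose and 4.44% fell, against 9.02% and 7.77% of all. At an unadjusted p under 0.05, limma without the block gave 8.89% of the 45 in MO1, against 10.9% of all probe sets. In MO2+MO3 it gave 11.1%, against 11.4%. With the block these shares were 33.3% against 29% in MO1 and 22.2% against 29.5% in MO2+MO3. The inhibitory Smads and the Smad2 copies made up 6 of the 9 that rose in MO1, and none of these 6 passed in MO2+MO3. When the reagents were compared directly with the block, only smad6.L and 1 smad2.L probe set of these 6 passed.

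No change was above 1 in size, and the difference in typical size between the reagents was not tested. The median size regardless of sign was 0.164 in MO1, against 0.138 over all probe sets. In MO2+MO3 it was 0.094, against 0.14. The 45 differences ran from -0.36 for a probe set of tgif2.L to 0.71 for acvr1b.S in MO1, and from -0.61 for a probe set of acvr2b.S to 0.49 for smad9.S in MO2+MO3. Their median was 0.09 in MO1, against 0.02 over all probe sets, and 0.04 in MO2+MO3, against 0.00. A difference above 0.5 in size was seen for 2 probe sets in MO1 and 1 in MO2+MO3, while 9.55% and 9.86% of all probe sets went beyond that size. With the block the 95% interval lay inside ±0.5 for 31 of the 45 in MO1 and for 36 in MO2+MO3. In whole embryos, fewer cells of a type and less RNA per cell cannot be told apart.

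**Figure D1:**
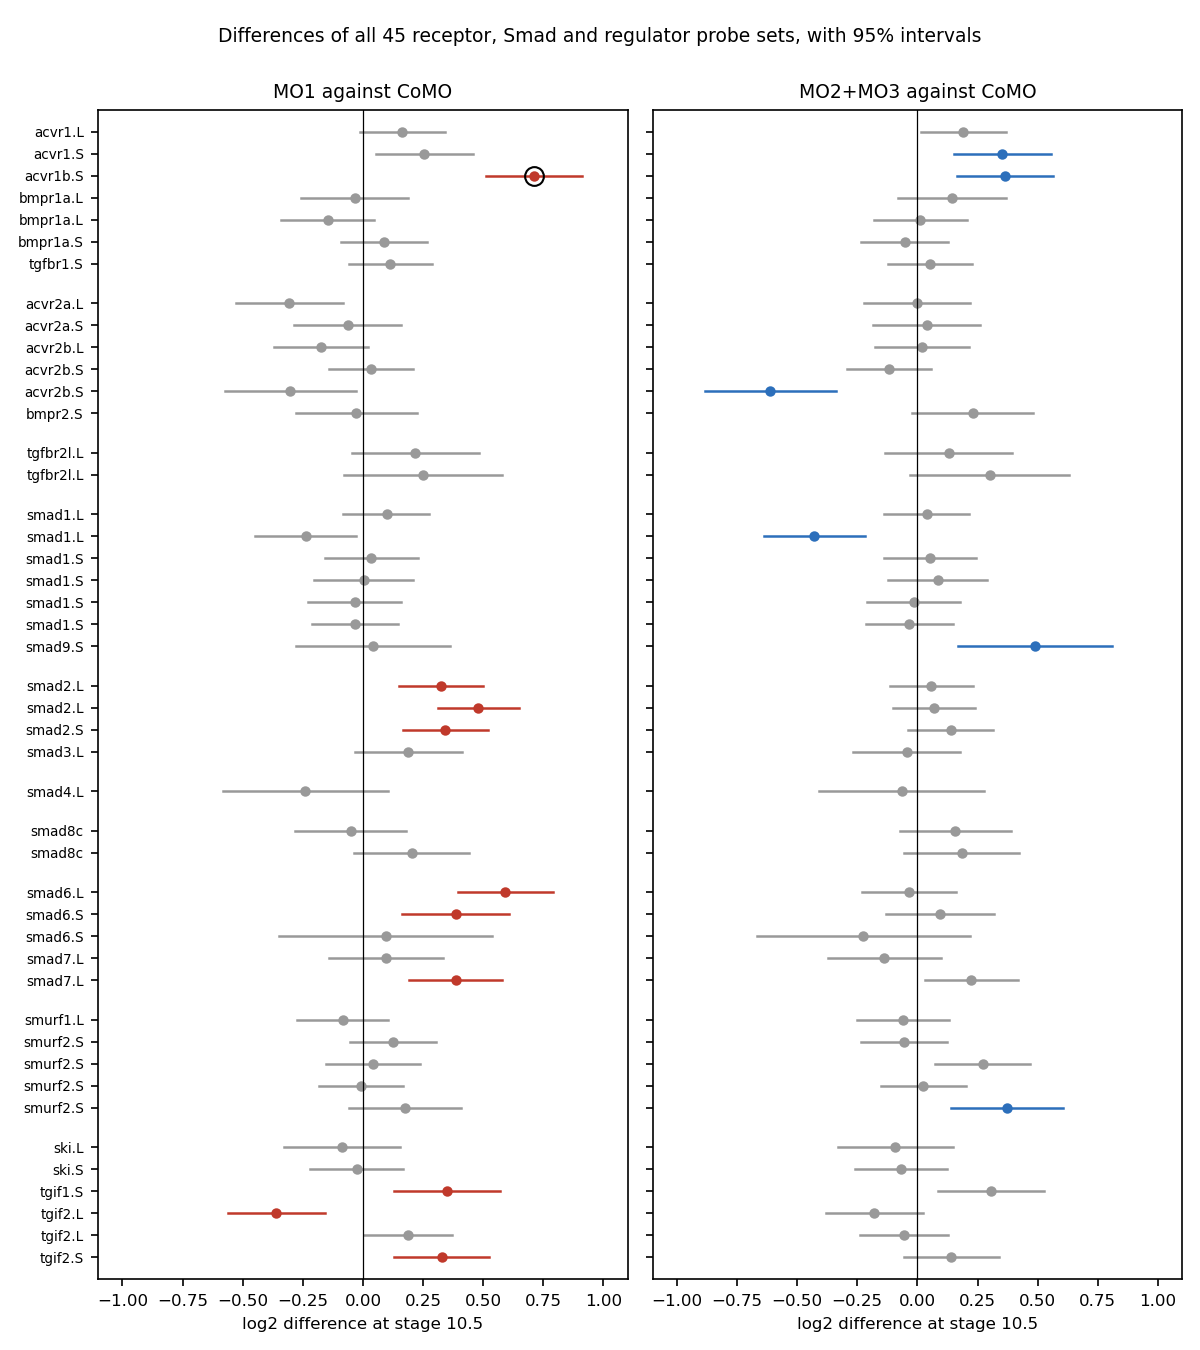
Differences from CoMO at stage 10.5 on the log2 scale for the 45 probe sets, grouped by role, in MO1 (left panel) and MO2+MO3 (right panel), with 95% intervals from the fit with the replicate block. Coloured points passed the test with the block (10 in MO1 and 6 in MO2+MO3), and the ringed point, acvr1b.S in MO1, also passed without it.

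Type I receptors are the kinases that choose the Smad branch, and 7 probe sets covered 6 of their genes. The receptor encoded by acvr1b (ALK4) passes activin and nodal signals to Smad2 and Smad3. acvr1b.S had values of 0.36 and 0.34 on the MO1 arrays and 0.07 and -0.07 on the MO2+MO3 arrays, against -0.26 and -0.47 on the CoMO arrays. The 3 groups did not overlap: both MO1 arrays were highest and both CoMO arrays lowest. At stage 10.5 both MO1 arrays lay above both CoMO arrays for 19.8% of all probe sets and below them for 17.1%. For MO2+MO3 these shares were 19.7% and 18.4%. Among the probe sets of these genes, 14 lay above and 7 below in MO1, and 11 and 4 in MO2+MO3. The difference from CoMO was 0.71 ± 0.12 in MO1 without the block (SE, n = 2 arrays a group; adjusted p = 0.0387) and 0.71 ± 0.09 with it (adjusted p = 0.00146). In MO2+MO3 it was 0.36 ± 0.12 without the block (adjusted p = 0.265) and 0.36 ± 0.09 with it (adjusted p = 0.0238). Leaving out any 1 of the 12 arrays ended the MO1 call of the fit without the block, with adjusted p of 0.0674 to 0.255. With the block the call stood in each of these 12 fits, with differences of 0.64 to 0.79 and adjusted p of 0.00252 to 0.0220.

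The other type I receptor gene that passed with the block was acvr1.S, whose product (ALK2) is a BMP receptor. Its values were 0.26 and -0.21 in MO1 and 0.32 and -0.07 in MO2+MO3, against 0.07 and -0.53 in CoMO. The groups overlapped, and within each replicate number both injected arrays were above the CoMO array. The difference was 0.35 ± 0.09 in MO2+MO3 with the block (adjusted p = 0.0277; 0.711 without it) and 0.25 ± 0.09 in MO1 (adjusted p = 0.0890 with the block). The .L copy differed by 0.16 in MO1 and 0.19 in MO2+MO3, and passed in neither fit. The BMP receptor gene bmpr1a (ALK3) had 3 probe sets that differed by -0.15 to 0.09 in MO1 and by -0.05 to 0.14 in MO2+MO3. tgfbr1.S, the type I receptor for TGF-beta itself, differed by 0.11 and 0.05. None of these passed.

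Type II receptors bind the ligand and activate the type I receptor, and 6 probe sets covered 5 of their genes. The one that passed was 1 of the 2 probe sets of acvr2b.S, a receptor shared by activin, nodal and several BMPs. Its values were -0.03 and 0.03 in MO1 and -0.45 and -0.16 in MO2+MO3, against 0.34 and 0.26 in CoMO. Both injected groups were below both CoMO arrays. In MO2+MO3 it fell by 0.61 with the block (SE 0.12; adjusted p = 0.0103; 0.104 without it), and in MO1 the difference was -0.30 ± 0.12 (adjusted p = 0.131 with the block). The other probe set of acvr2b.S did not show this: its differences were 0.03 in MO1 and -0.12 in MO2+MO3, with block intervals of -0.14 to 0.21 and -0.29 to 0.06. The .L copy differed by -0.17 and 0.02.

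acvr2a.L, the related activin receptor, had values of -0.20 and -0.30 in MO1 and 0.08 and 0.03 in MO2+MO3, against -0.03 and 0.15 in CoMO. The MO1 arrays were the lowest, but the difference of -0.31 ± 0.10 missed the threshold with the block (adjusted p = 0.0669). In MO2+MO3 it was 0.00. acvr2a.S and the BMP type II receptor gene bmpr2.S differed by -0.06 and -0.03 in MO1 and by 0.04 and 0.23 in MO2+MO3, and passed in neither. The lowest array of bmpr2.S was below 4 on the uncentred log2 scale at stage 10.5, a level at which negative control probe sets also lay. The same held for both probe sets of tgfbr2l.L, a TGF-beta receptor 2 homologue by its name, with differences of 0.22 and 0.25 in MO1 and 0.13 and 0.30 in MO2+MO3.

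Smad2, the main activin and nodal Smad of the early embryo, had 3 probe sets, and all 3 rose in MO1 with the block. Over all probe sets, 8.48% rose in that comparison. The probe set of smad2.L that moved most had values of 0.48 and 0.00 in MO1 and 0.06 and -0.40 in MO2+MO3, against 0.00 and -0.47 in CoMO. Each MO1 array was above the CoMO array of its own replicate number, and the replicate numbers themselves lay about as far apart as the groups. The MO1 difference was 0.48 ± 0.07 with the block (adjusted p = 0.00388) and 0.48 ± 0.22 without it (adjusted p = 0.488), and the block call stood when any 1 of the 12 arrays was left out (adjusted p of 0.00713 to 0.0443). The MO2+MO3 difference was 0.07, with a block interval of -0.10 to 0.24.

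The other smad2.L probe set had values of 0.36 and -0.09 in MO1 and 0.12 and -0.38 in MO2+MO3, against 0.09 and -0.47 in CoMO. smad2.S had 0.31 and 0.07 in MO1 and 0.07 and -0.10 in MO2+MO3, against -0.07 and -0.24 in CoMO. The first overlapped between the groups, and in the second both MO1 arrays were above both CoMO arrays. Their MO1 differences of 0.33 ± 0.08 and 0.34 ± 0.08 passed with the block (adjusted p = 0.0223 and 0.0197) and not without it (0.785 and 0.321). smad3.L, the other Smad of this branch, differed by 0.19 in MO1 and -0.05 in MO2+MO3 and passed in neither. Its lowest array at stage 10.5 was below 4 as well, where negative control probe sets also lay.

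The Smads of the BMP branch had 7 probe sets of 3 genes, and none passed in MO1, against 16.2% of all probe sets with the block. One of the 2 probe sets of smad1.L had values of -0.05 and 0.05 in MO1 and -0.30 and -0.07 in MO2+MO3, against 0.17 and 0.30 in CoMO. Both injected groups were below both CoMO arrays. It fell by 0.43 in MO2+MO3 with the block (SE 0.09; adjusted p = 0.0153; 0.190 without it), and differed by -0.24 ± 0.09 in MO1 (adjusted p = 0.125). The other smad1.L probe set differed by 0.10 in MO1 and 0.04 in MO2+MO3. The 4 probe sets of smad1.S stayed between -0.03 and 0.03 in MO1 and between -0.03 and 0.08 in MO2+MO3.

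smad9.S, whose lowest array was also below 4, had values of -0.09 and 0.05 in MO1 and 0.63 and 0.23 in MO2+MO3, against -0.07 and -0.05 in CoMO. Both MO2+MO3 arrays stood above the rest. The difference of 0.49 ± 0.14 passed with the block (adjusted p = 0.0469) and was far from it without the block (0.873), where the SE was 0.48. The common partner smad4.L differed by -0.24 ± 0.15 in MO1 and -0.07 ± 0.15 in MO2+MO3 with the block and passed in neither. smad8c, whose role is not given in the sources used here, had 2 probe sets with differences of -0.05 and 0.20 in MO1 and 0.16 and 0.18 in MO2+MO3, and neither passed.

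The inhibitory Smads had 5 probe sets, of which 3 rose in MO1 with the block and none passed in MO2+MO3. Over all probe sets, 8.48% rose in MO1 with the block, and 16.8% passed in MO2+MO3 in either direction. smad6.L had values of 0.69 and 0.38 in MO1 and 0.02 and -0.21 in MO2+MO3, against -0.02 and -0.09 in CoMO. Both MO1 arrays were above the other 4, and MO2+MO3 overlapped CoMO. The MO1 difference was 0.59 ± 0.09 with the block (adjusted p = 0.00289, 1.51-fold) and 0.59 ± 0.16 without it (adjusted p = 0.178). It passed with the block when any 1 of the 12 arrays was left out (adjusted p of 0.00582 to 0.0433). In MO2+MO3 the difference was -0.03, with a block interval of -0.23 to 0.16.

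Both copies of smad6 were on the array. One probe set of smad6.S had values of 0.39 and 0.08 in MO1 and 0.19 and -0.31 in MO2+MO3, against -0.08 and -0.22 in CoMO. The difference of 0.39 ± 0.10 in MO1 passed with the block (adjusted p = 0.0304; 0.542 without it), and that of 0.09 in MO2+MO3 did not. The other smad6.S probe set differed by 0.09 and -0.22 and passed in neither. Its lowest array at stage 10.5 was below 4, where negative control probe sets also lay. smad7.L also had a probe set that passed and one that did not. The first had values of 0.37 and 0.09 in MO1 and 0.23 and -0.09 in MO2+MO3, against -0.09 and -0.22 in CoMO. It differed by 0.39 ± 0.09 in MO1 (adjusted p = 0.0175 with the block, 0.363 without) and by 0.22 ± 0.09 in MO2+MO3 (adjusted p = 0.116 with the block). The second differed by 0.10 and -0.14, with MO1 block limits of -0.14 to 0.33.

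**Figure D2:**
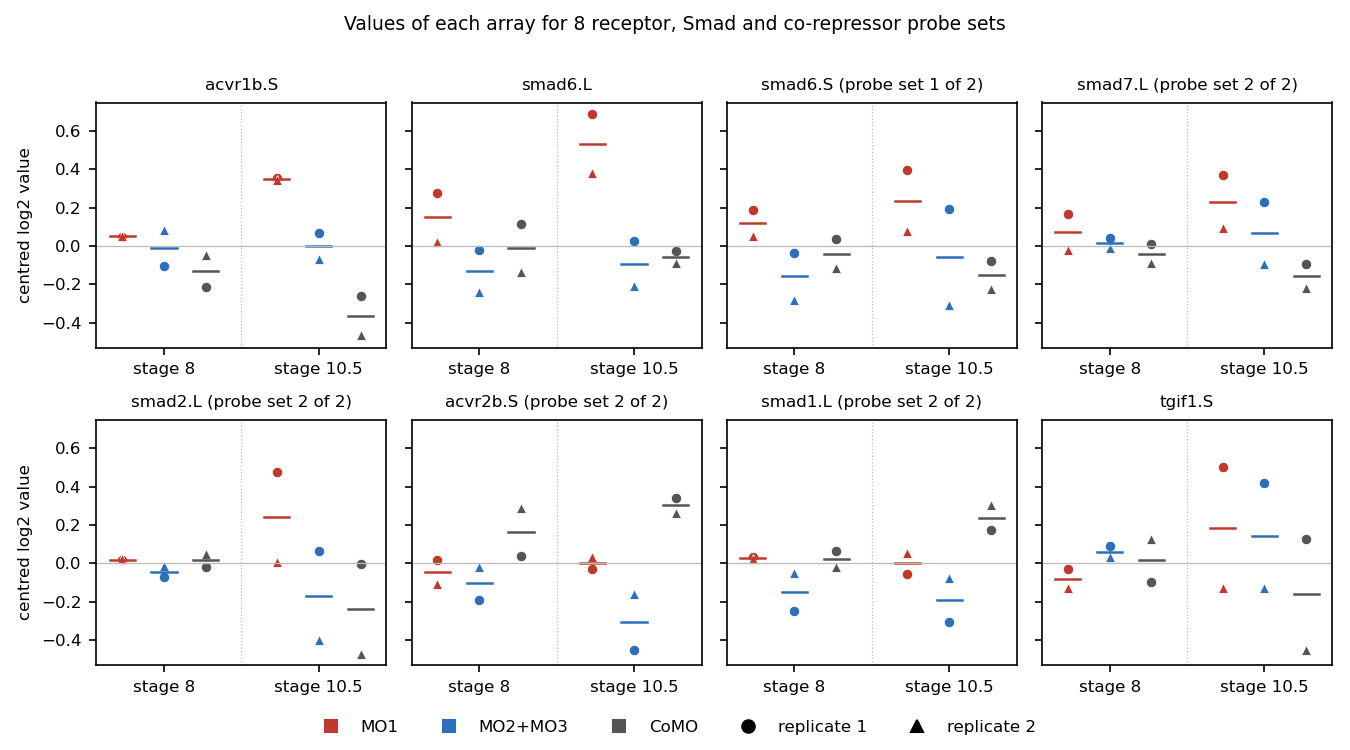
Centred log2 values (y axis) of 8 probe sets on every array, by stage, with MO1, MO2+MO3 and CoMO from left to right within a stage, circles and triangles for the replicate numbers and a bar at the group mean. At stage 10.5, for acvr1b.S both MO1 arrays (0.36 and 0.34) lie above both CoMO arrays (-0.26 and -0.47), and for smad6.L both MO1 arrays lie above the other 4, whereas the smad2.L values follow the replicate number within each group. Both MO1 arrays lay above both CoMO arrays for 19.8% of all probe sets at that stage.

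The Smurf ubiquitin ligases, which mark Smads and receptors for degradation, had 5 probe sets. The one that passed belonged to smurf2.S, with values of 0.08 and -0.08 in MO1 and 0.14 and 0.26 in MO2+MO3, against -0.17 and -0.18 in CoMO. Both injected groups were above CoMO, and the MO2+MO3 difference of 0.37 ± 0.10 passed with the block (adjusted p = 0.0398; 0.228 without it). The other 3 smurf2.S probe sets differed by -0.06 to 0.27 in MO2+MO3, and all 4 by -0.01 to 0.17 in MO1. smurf1.L differed by -0.09 and -0.06.

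The co-repressors Ski and Tgif recruit deacetylases to Smad complexes and lower their output. Neither ski copy passed: ski.L differed by -0.09 in both reagents, and ski.S by -0.03 in MO1 and -0.07 in MO2+MO3. The Tgif genes moved in different directions in MO1. tgif1.S had values of 0.50 and -0.13 in MO1 and 0.42 and -0.13 in MO2+MO3, against 0.13 and -0.45 in CoMO. The difference of 0.35 ± 0.10 in MO1 passed with the block (adjusted p = 0.0427), and that of 0.31 ± 0.10 in MO2+MO3 missed it (adjusted p = 0.0659). tgif2.S had 0.32 and -0.03 in MO1 and 0.06 and -0.14 in MO2+MO3, against 0.03 and -0.39 in CoMO, and its MO1 difference of 0.33 ± 0.09 passed (adjusted p = 0.0353). One probe set of tgif2.L had -0.30 and -0.06 in MO1 and -0.03 and 0.03 in MO2+MO3, against 0.10 and 0.26 in CoMO, and fell by 0.36 in MO1 (SE 0.09; adjusted p = 0.0274). The other tgif2.L probe set had the opposite sign in MO1, 0.19 ± 0.08 (adjusted p = 0.160), so the direction of tgif2.L depended on the probe set. Without the block none of these passed.

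Most calls with the block did not stand in every fit that left out 1 array. Each such fit also has 1 array fewer for the spread, and the cause of the losses was not tested. Of the 10 MO1 calls with the block, 3 stood in all 12 fits that each left out 1 array (acvr1b.S, smad6.L and the smad2.L probe set with the larger change). The number called in MO1 fell to 3 without CoMO replicate 1, MO1 replicate 1 or MO1 replicate 2 of stage 10.5, and to 5 once CoMO replicate 2 was dropped. None of the 6 MO2+MO3 calls stood throughout: 0 were left when CoMO replicate 1 or MO2+MO3 replicate 1 of stage 10.5 was dropped, 1 when CoMO replicate 2 was, and 3 when MO2+MO3 replicate 2 was. Dropping either MO1 array of stage 8 left 4. Over both reagents 15 probe sets of 14 genes passed with the block in MO1, MO2+MO3 or their mean, and acvr1b.S was the 1 probe set that passed in both. The shares of all probe sets in such combined counts were not computed, so neither count can be read as particular to these genes.

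The reagents were then compared with each other at stage 10.5. Without the block no probe set of these genes passed, against 0.550% of all, and 3 of the 45 had an unadjusted p under 0.05, 6.67% against 8.22% of all. With the block 3 were higher in MO1 than in MO2+MO3, which is 6.67% of the 45 against 9.75% of all in either direction and 4.36% higher. These were smad6.L, by 0.63 (adjusted p = 0.00377), the smad2.L probe set with the larger change, by 0.41 (0.0115), and acvr1b.S, by 0.35 (0.0405). Without the block their adjusted p were 0.208, 0.780 and 0.396. The smad6.L difference passed with the block in all 12 fits that left out 1 array, and that of smad2.L in 8. The smad2.L call was lost without any 1 of the MO1 or MO2+MO3 arrays of stage 10.5 (adjusted p of 0.0856 to 0.102). That of acvr1b.S stood in 2, those without an MO1 array of stage 8, and was lost in the others (adjusted p of 0.0517 to 0.319).

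At stage 8 no probe set of these genes passed in either reagent in either fit. The share of all probe sets called there was 0.00615% in MO1 and 0% in MO2+MO3 without the block, and 0.123% and 0.141% with it. Nor did any pass for the mean of both reagents or between MO1 and MO2+MO3, against 0% and 0.00615% without the block and 0.0522% and 0.381% with it. Differences of the 45 ran from -0.21 to 0.30 in MO1 and from -0.27 to 0.18 in MO2+MO3. At an unadjusted p under 0.05, limma without the block gave 0 of the 45 in both reagents, against 1.93% of all probe sets for MO1 and 2.34% for MO2+MO3. With the block it gave 0 in MO1, against 8.19%, and 2 in MO2+MO3, which is 4.44% against 10.9%. The mean of the reagents had 0 without the block (2.04% of all) and 1 with it (9.20%), and between the reagents there were 0 (2.44%) and 3 (11%). acvr1b.S had values of 0.05 and 0.05 in MO1 and -0.10 and 0.08 in MO2+MO3, against -0.21 and -0.05 in CoMO. smad6.L had 0.28 and 0.02 in MO1 and -0.02 and -0.24 in MO2+MO3, against 0.12 and -0.13 in CoMO. For smad6.L the groups overlapped, while for acvr1b.S both MO1 arrays were above both CoMO arrays by less than the test could separate. At stage 8 both MO1 arrays were above both CoMO arrays for 13.9% of all probe sets.

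Some genes differed more between the replicate numbers than between the injections at stage 8. smad9.S had -0.66 and 0.47 in MO1 and -0.72 and 0.53 in MO2+MO3, against -0.42 and 0.42 in CoMO. One tgif2.L probe set had -0.42 and 0.42 in MO1 and -0.50 and 0.47 in MO2+MO3, against -0.42 and 0.64 in CoMO. In both genes replicate 2 was higher in every group. The other tgif2.L probe set had the same order, with -0.45 and 0.34 in CoMO.

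The change of an effect from stage 8 to stage 10.5 was tested for each reagent. With the block it passed for 1 of the 45 in MO1, against 4.16% of all probe sets (2.02% higher), and for none in MO2+MO3, against 3.84%. Without the block none passed, against 0.0215% and 0.00922%. At an unadjusted p under 0.05 there were 2 in MO1 and 1 in MO2+MO3 without the block, 4.44% and 2.22% against 4.74% and 4.55% of all. With it there were 8 and 2, which is 17.8% and 4.44% against 18.3% and 18.1%. The one called was the smad2.L probe set with the larger change, whose MO1 effect was 0.48 higher at stage 10.5 than at stage 8 (adjusted p = 0.0445). It had 0.02 and 0.02 in MO1 at stage 8, against -0.02 and 0.05 in CoMO. This call was lost whichever 1 of the 12 arrays was left out.

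**Figure D3:**
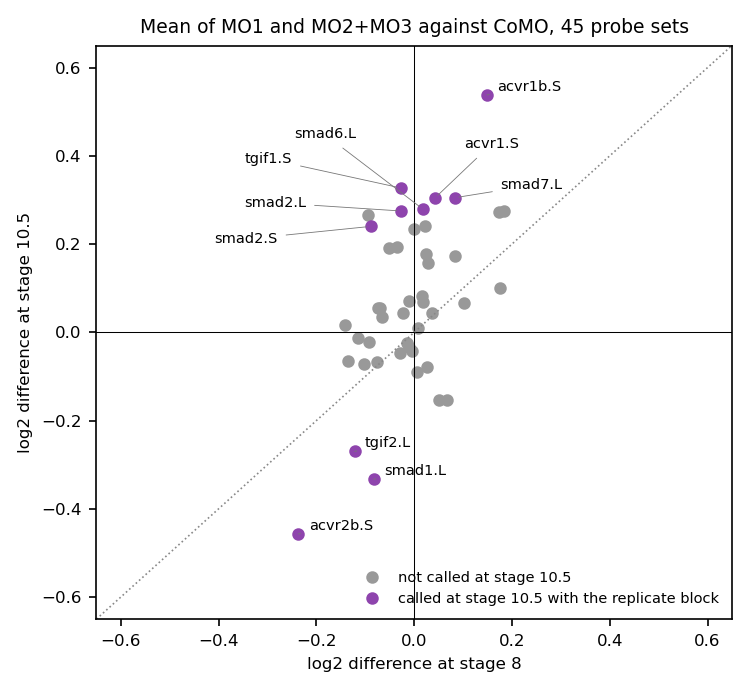
Difference from CoMO, averaged over MO1 and MO2+MO3, at stage 8 (x axis) and at stage 10.5 (y axis) on the log2 scale for the 45 probe sets, with a dotted line of equality. The 10 coloured and named probe sets passed at stage 10.5 with the replicate block, 7 higher and 3 lower, and no probe set passed at stage 8.

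The mean of both reagents gave no call at stage 10.5 without the block, against 0.996% of all probe sets. With the block it gave 10, or 22.2% against 19.1%, with 7 higher and 3 lower against 10.0% and 9.10% of all, of which acvr1b.S stood in all 12 fits that left out 1 array. Its mean difference was 0.54 (adjusted p = 0.00227 with the block, 0.0587 without). Among the arrays of stage 10.5, the number called fell to 1 without CoMO replicate 1, to 2 without CoMO replicate 2, either MO1 array or MO2+MO3 replicate 1, and to 4 without MO2+MO3 replicate 2.

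Other genes of the pathway were set beside the receptors and Smads at stage 10.5 with the block, where 8.48% of all probe sets were higher and 7.75% lower in MO1, and 9.02% higher and 7.77% lower in MO2+MO3. Among 15 probe sets of BMP and GDF ligands, none was higher and 5 were lower in MO1, and 3 were higher and 4 lower in MO2+MO3. The ligand gene bmp4.L was lower, with differences of -0.45 in MO1 (adjusted p = 0.0131 with the block, 0.383 without) and -0.40 in MO2+MO3 (0.0197 and 0.441). bmp2.S was 0.84 higher in MO2+MO3 (0.00330 and 0.132), and its difference of 0.07 in MO1 did not pass. Of 16 probe sets of nodal, activin and TGF-beta ligands, 1 was lower in MO1, and 1 was higher and 1 lower in MO2+MO3. gdf3.S, a nodal-pathway ligand, differed by -0.54 in MO1 and -0.60 with the other reagent (adjusted p = 0.00458 and 0.00298 with the block, 0.279 and 0.215 without). Of 41 probe sets of antagonists outside the cell or in its membrane, 2 were higher and 3 lower in MO1, and 3 and 3 in MO2+MO3. Without the block no probe set of these 3 lists passed in limma in either reagent. At an unadjusted p under 0.05 it gave, for the BMP and GDF ligands, 2 of the 15 in MO1 and 4 of the 15 in MO2+MO3. For each of the other 2 lists, of 16 and 41 probe sets, it gave 2 in MO1 and 1 in MO2+MO3. The share of all probe sets under that unadjusted threshold without the block was 10.9% in MO1 and 11.4% in MO2+MO3.

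Intracellular regulators of Smads had 37 probe sets, of which 10 rose and 1 fell in MO1, and 7 rose and 4 fell in MO2+MO3, with the block. Without it 0 passed in MO1 and 1, which was lower, in MO2+MO3. At an unadjusted p under 0.05 limma gave 11 of the 37 in MO1 and 7 of the 37 in MO2+MO3. These were larger shares than the 10.9% and 11.4% of all probe sets. Those that rose with the block included pmepa1.L, an inhibitor that TGF-beta itself induces (0.48 in MO1, 0.58 in MO2+MO3; adjusted p of 0.447 and 0.315 without the block). For stub1.L, a ubiquitin ligase that acts on Smads, 1 of 2 probe sets rose with the block (0.52 and 0.94; 0.414 and 0.109 without it), and the other differed by 0.24 and 0.16 and did not pass. strap.S, a partner of Smad7 at the receptor, rose by 0.79 in MO1 with the block (adjusted p = 0.00139, 0.211 without) and differed by 0.14 in MO2+MO3 (0.390 with the block). For fkbp1a.L, a binding protein that restrains type I receptors, 1 of 2 probe sets differed by -0.45 and -0.58 (adjusted p = 0.0225 and 0.00811 with the block, 0.702 and 0.521 without). The other differed by -0.46 and -0.46 and did not pass.

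Of 44 probe sets of nuclear Smad partners, 2 were higher and 3 lower in MO1, and 5 and 5 in MO2+MO3, with the block. Without it limma gave 0 in both reagents. At an unadjusted p under 0.05 it gave 4 of the 44 in MO1 and 5 of the 44 in MO2+MO3, where 10.9% and 11.4% of all probe sets passed. The list holds foxh1.L, the DNA-binding partner of Smad2, of which 1 of 2 probe sets rose by 0.61 and 0.36 with the block (adjusted p = 0.00149 and 0.0131, 0.422 and 0.732 without). The other foxh1.L probe set differed by 0.31 in MO1 and -0.17 in MO2+MO3 and did not pass.

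Target genes of both branches were read from the same arrays. Both target lists leave out smad6 and smad7, which the signal also switches on and which are given above. Of 44 probe sets of BMP target genes, 3 were higher and 19 lower in MO1, and 1 was higher and 16 lower in MO2+MO3. Without the block 4 and 5 were lower. The homeobox gene dlx3.S was lower, differing by -1.27 in MO1 and -1.35 in the MO2+MO3 group, also without the block (adjusted p = 0.00308 and 0.00711). Of the 3 probe sets of dlx3.L, the one with the largest change differed by -1.54 and -1.53, and the other 2 by -1.50 to 0.40 in MO1, where 1 was called lower and 1 higher with the block, and by -1.47 to -0.73 in MO2+MO3, where both were called lower. ventx1.1.L, a homeobox gene that BMP induces, had 7 probe sets. With the block 1 was higher by 0.37 and 0.38 (adjusted p = 0.0212 and 0.0180, 0.158 and 0.145 without), 1 of the other 6 was lower in each reagent, and these 6 ran from -0.49 to 0.27 in MO1 and from -0.29 to 0.34 in MO2+MO3. Of 49 probe sets of nodal and activin targets, none was higher and 16 were lower in MO1. In MO2+MO3, 1 was higher and 9 lower. Without the block limma gave 0 of these 49 in either reagent. At an unadjusted p under 0.05 it gave 7 of the 49 in MO1 and 3 of the 49 in MO2+MO3, where 10.9% and 11.4% of all probe sets passed. The median difference of the BMP targets was -0.42 in MO1 and -0.27 in MO2+MO3, that of the nodal and activin targets -0.36 and -0.15.

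Markers of cell types were counted as well. Over all probe sets, 8.48% were higher and 7.75% lower in MO1 with the block, and 9.02% and 7.77% in MO2+MO3. Without it 0.916% and 0.907% were called in either direction. With the block, 2 of 24 epidermis probe sets were higher and 11 lower in MO1, and 0 and 10 in MO2+MO3. Of 36 neural probe sets 1 was higher and 10 lower in MO1, and 0 and 6 in MO2+MO3. Of 45 mesoderm probe sets 0 were higher and 20 lower in MO1, and 1 and 21 in MO2+MO3. No endoderm or organizer probe set was higher, and 15 and 10 of 29 endoderm and 10 and 4 of 25 organizer probe sets were lower in MO1 and MO2+MO3. Of 27 probe sets of maternal and germ plasm genes, 4 were higher and 2 lower in MO1, and 7 were higher and 1 lower in MO2+MO3. Of 29 probe sets of cell death and p53 response genes, 3 were higher and 4 lower in MO1, and 1 and 5 in MO2+MO3. Without the block, 5 epidermis probe sets were lower in each reagent, 1 neural probe set was higher and 1 lower in MO1, and 1 was lower in MO2+MO3. The mesoderm, endoderm, organizer, maternal and cell death lists had 0 calls in limma without the block. At an unadjusted p under 0.05 these had, in that order, 11 of 45, 3 of 29, 3 of 25, 4 of 27 and 5 of 29 probe sets in MO1. In MO2+MO3 they had 10, 2, 1, 7 and 3. The shares of all probe sets were 10.9% and 11.4%. The lists share genes, so their counts are not separate observations. For example, cer1.S was in the antagonist, nodal target, organizer and endoderm lists, and tbxt.2.S in the nodal target and mesoderm lists. The part of cell makeup or developmental timing in the changes of the receptor and Smad RNAs was not tested.

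**Figure D4:**
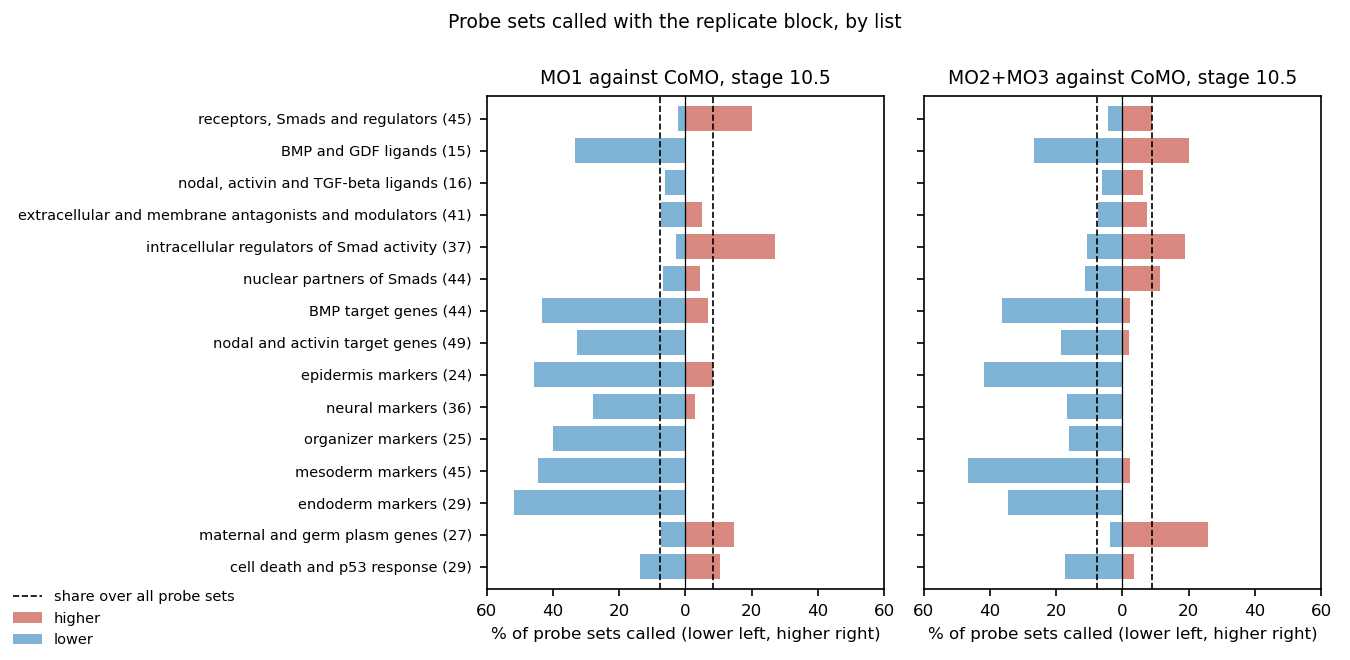
Percent of the probe sets of each list that passed with the replicate block at stage 10.5, with the number of probe sets in brackets, lower to the left of 0 and higher to the right, in MO1 (left panel) and MO2+MO3 (right panel). The dashed lines mark the shares over all probe sets. In MO1, 43.2% of the BMP target probe sets were lower and 6.82% higher. The target lists leave out smad6 and smad7. Of the receptor, Smad and regulator probe sets, 2.22% were lower and 20% higher in MO1.

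The genes whose centred values were most like those of the inhibitory Smads were found by Pearson's r over the 6 arrays of stage 10.5, as a description. For smad6.L these were lim2.L, with an r of 0.998, and fam3a.S and mfsd14a.L, each with 0.994. For the smad7.L probe set that passed in MO1 they were wdr20, with 0.999, and cerk.S, with 0.994. The 5 most alike genes of each of the 5 inhibitory Smad probe sets reached at least 0.982, and these values share arrays and the replicate numbers. This includes the smad6.S probe set whose lowest array was below 4.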

How the data were processed

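The authors deposited 1 table of log2 values for 32635 probe sets on 12 arrays, which RMA produced, per the submitters' processing notes (no version given). The base of the logarithm is not stated and was taken as 2. Each probe set was found to be centred on the median of the 6 arrays of its stage. The 96 control probe sets were left out. The platform annotation named 1 gene for 15495 probe sets, and a RefSeq gene table (Xenopus_laevis_v10.1) matched 15384 of these. A probe set may hybridise to both the .L and the .S copy. The array number limits the precision.

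limma 3.58.1 in R 4.3.3 was fitted to all 12 arrays with 1 coefficient per group, once as such and once with a block for each replicate number of each stage. The numbers pair the samples because same-numbered arrays of a stage deviated together (correlation of deviations 0.821 to 0.864, and -0.0164 to 0.0244 between stages). The median residual SD was 0.175 without the block (6 degrees of freedom) and 0.104 with the block (4). P-values were adjusted by Benjamini-Hochberg over 32539 probe sets and called under 0.05, and intervals are 95%. The code was tested on simulated data. The lowest level of a probe set was bounded from rounding in the deposited values, which in a simulation of 20000 gave the right range in 96.2%. Of 6 negative control probe sets, 6 lay below 4. The genes, lists and named genes were chosen with earlier results of these data known. Array values are given for acvr1b.S, the smad6 and smad7 probe sets that passed, the probe sets called for the mean of both reagents and the largest uncalled changes other than tgfbr2l.L. For tgfbr2l.L and the smad6.S and smad7.L probe sets that did not pass, only differences are given. Those called in 1 reagent alone, acvr2a.L and the stage 8 values of smad9.S and tgif2.L were added after their values were seen. Of each other list, genes came from the 4 largest called changes in a direction, by the mean of both reagents.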

Additional observations from a re-analysis of the deposited data

Results flagged for a closer look

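The effects of the reagents against CoMO differed at stage 10.5 for 3 probe sets in the fit with the replicate block. This was 6.67% of the 45, against 9.75% of all probe sets. The difference of MO1 minus MO2+MO3 was 0.627 for smad6.L (adjusted p = 0.00377), 0.41 for a probe set of smad2.L (adjusted p = 0.0115) and 0.349 for acvr1b.S (adjusted p = 0.0405). In smad6.L both MO1 arrays were above both MO2+MO3 arrays, in smad2.L the arrays of the 2 groups overlapped, and in acvr1b.S both MO1 arrays were the higher. None of these passed without the block (adjusted p = 0.208, 0.780 and 0.396). As given above, the smad2.L and acvr1b.S calls did not stand in every fit that left out 1 array.

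The MO1 effect on the same smad2.L probe set was 0.476 higher at stage 10.5 than at stage 8 (adjusted p = 0.0445 with the block, 0.9999 without). That call did not stand in any fit that left out 1 array. The causes of these differences were not tested.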

How the results depend on the processing

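With 2 arrays a group and only broad ranges of level, small differences could not be separated from the spread between arrays. A call that was missed does not show equal RNA. The replicate block changed most counts. Of these genes' 45 probe sets, MO1 against CoMO at stage 10.5 gave 1 call without the block and 10 with it, MO2+MO3 gave 0 and 6, the mean of both reagents 0 and 10, MO1 against MO2+MO3 0 and 3, and the change of the MO1 effect between the stages 0 and 1. Fitting the 6 arrays of stage 10.5 alone gave 0 for MO1 without the block, and with it 7 for MO1, 3 for MO2+MO3, 7 for the mean and 2 for MO1 against MO2+MO3. Of the alternatives chosen after seeing the data, quantile normalization with the block gave 6, 5, 5 and 3 in that order. Averaging the probe sets of a gene, with the block, gave 7, 5, 8 and 3 of 30 genes, and 3 for the change of the MO1 effect. Leaving out dim probe sets, with the block, gave 12, 7, 15 and 6 of 36 probe sets, and 5 for that change. That filter also changed which probe sets were tested and adjusted over. The shares over all probe sets in these alternative fits are not given here, so the counts cannot be read as particular to these genes. Leaving out 1 array gave 0 to 0 calls without the block in these comparisons. With it, the counts were 3 to 10 for MO1, 0 to 7 for MO2+MO3, 1 to 9 for the mean, 1 to 3 for MO1 against MO2+MO3 and 0 to 0 for the changes between stages. At stage 8, and for the change of the MO2+MO3 effect, every alternative gave 0. With the block, MO2+MO3 gave 4 without MO1 replicate 1 or 2 of stage 8, and the mean 4 without MO2+MO3 replicate 2 of stage 10.5. No called difference reversed its sign. The cause of the moves between settings was not tested.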
